A study of Mus musculus with 8 samples.

Results

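Potassium channel genes were taken as all genes whose symbol starts with Kcn. Of the 58522 peaks listed, 204 were annotated to such a gene, and they belonged to 68 of 17780 genes. Of these, 202 peaks passed the filter on low counts, and all 68 genes did so when the counts of their peaks were summed. The 2 peaks left out, of Kcnd2 and Kcnt2, had too few reads to be tested. Every peak was assigned by the authors to the nearest transcription start, so a peak carries the name of a channel gene without proof that it acts on it. Of the 204 peaks, 112 lay outside the body of their own gene in the GENCODE annotation and 18 lay within another gene. Genes with provisional symbols (Gm numbers, Rik or clone names) were left out of this overlap, so more may lie within another transcript.

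ATAC-seq, in which a transposase inserts sequencing adapters into open DNA, was used to measure accessible chromatin in hepatic endothelial cells, called LSECs (liver sinusoidal endothelial cells) after their main type. The MafLSEC-KO mice carried the Clec4g-iCre transgene (tg/wt) and 2 floxed Maf alleles (Maf fl/fl), so that Maf, which encodes the transcription factor c-Maf, was removed where the Clec4g-derived driver was active. The controls were littermates without Cre, with Maf fl/fl or Maf fl/wt, so that a floxed allele was present in both groups. All mice were 12 weeks old, and each group had 4 libraries. The labels name 3 mice and not which animals gave which library, and liver tissue of several mice was pooled for cell isolation, so n counts libraries, and a p-value sets the difference against the variation among libraries only, part of which may be technical. Because the cells were taken as a bulk population that also holds endothelium of larger vessels, fewer cells of a type and less accessible chromatin per cell cannot be told apart.

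Potassium channels let potassium leave or enter the cell and so set the membrane potential. In endothelium, hyperpolarisation raises the driving force for calcium entry and spreads through gap junctions, which is known to govern vessel tone. The genes fall into classes by structure: pore-forming subunits opened by voltage with auxiliary subunits that modify them, channels opened by intracellular calcium or sodium, inward rectifiers that pass current best near the resting potential, and two-pore-domain channels that carry a background leak.

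The total count was 6783573 to 11614365 reads in MafLSEC-KO libraries and 5367124 to 13364062 reads in controls, in which replicates 1 and 3 were the shallowest. The Maf promoter peak (chromosome 8, 115706763 to 115708356) had 125, 124, 131 and 98 reads in MafLSEC-KO libraries, against 314, 558, 360 and 1088 reads in controls (log2 fold change -2.42, SE 0.188, edgeR adjusted p = 2.37e-07), so every library went with its label. At this peak, fewer copies of the DNA and less accessible DNA cannot be told apart. The label of the cells was checked with marker genes: all 8 general endothelial markers and all 10 LSEC markers had accessible peaks. Their summed level was 1530 to 1767 CPM (counts scaled to a common library size) in MafLSEC-KO and 1361 to 2024 CPM in controls for the endothelial markers, and 1410 to 1542 CPM in MafLSEC-KO and 1253 to 1989 CPM in controls for the LSEC markers. The LSEC markers Stab2, Lyve1, Fcgr2b and Dnase1l3 fell and Clec4g, the source of the Cre driver, rose. Clec4g had 333 to 426 CPM in MafLSEC-KO and 93.2 to 135 CPM in controls, and so filled more of the LSEC sum in MafLSEC-KO. Only MafLSEC-KO mice carried the Clec4g-derived transgene. At Clec4g, more copies of the DNA and more accessible DNA therefore cannot be told apart. Of the hepatocyte markers, Alb, Cyp2e1, Hnf4a and Fgb had no value, and the other 6 summed to 140 to 155 CPM in MafLSEC-KO and 137 to 156 CPM in controls. The summed level was 96.9 to 118 CPM in MafLSEC-KO and 97.9 to 125 CPM in controls for 6 of 10 macrophage markers, 359 to 447 CPM in MafLSEC-KO and 375 to 479 CPM in controls for 3 of 10 lymphocyte markers, 66.2 to 89.4 CPM in MafLSEC-KO and 85.4 to 97.0 CPM in controls for 7 of 10 stellate cell markers, and 90.1 to 98.1 CPM in MafLSEC-KO and 72.2 to 98.4 CPM in controls for 4 of 6 cholangiocyte markers, of which Cftr rose. The part of these markers in the results on Kcn genes was not tested.

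Peaks of Kcn genes changed in both directions in MafLSEC-KO LSECs, with medians near those of all peaks. Of 202 tested peaks, 24 (11.9%) rose and 11 (5.45%) fell, against 8.97% and 6.45% of all 58268 tested peaks (edgeR quasi-likelihood test with Benjamini-Hochberg adjustment over all peaks, adjusted p under 0.05). The median log2 fold change was 0.02 over the Kcn peaks and 0.00 over all peaks. The Kcn peaks that rose did so by a median of 0.94 on the log2 scale, close to 0.95 for all peaks that rose, and those that fell had a median of -0.97, beside -0.91. The MafLSEC-KO and control libraries did not overlap at 38 Kcn peaks (18.8%), against 19.4% of all peaks. Without control replicates 1 and 3, 32 of 204 tested Kcn peaks rose and 19 fell, where 6826 and 5585 of all 58451 tested peaks did so. Summed over all Kcn genes, the level was 1757 to 1807 CPM in MafLSEC-KO and 1672 to 1823 CPM in controls.

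With the counts of each gene summed over its peaks, 8 of 68 Kcn genes rose (11.8%, against 5.65% of all 17745 tested genes) and 3 fell (4.41%, against 4.05%). Among the genes that rose were Kcng2, Kcns3, Kcnk2, Kcnab2, Kcnj16, Kcnh5 and Kcnip1. Those that fell were Kcne4, Kcnj8 and Kcnd3os. The median was -0.02 over the Kcn genes and -0.02 over all genes. The 2 groups of libraries did not overlap for 16 Kcn genes, 11 of them past the threshold, where 16.2% of all genes did not overlap. Of the 11 genes, 4 had at least 2 peaks past the threshold on their own, 7 rested on a single one, and 3 had no other peak. A further 12 genes had a called peak but no called sum, and 45 had neither.

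The sums of Kcng2, Kcns3 and Kcnk2 passed in every alternative that was run. The Kcnj8 call did not hold if MafLSEC-KO replicate 1 was left out (edgeR adjusted p = 0.0523) and the Kcne4 call was lost only where distant peaks were left out. The sums of Kcnab2, Kcnh5, Kcnj16, Kcnip1 and Kcnd3os did not hold if any 1 of several libraries was left out. For Kcnab2 these were control replicate 2 and MafLSEC-KO replicates 2 and 3 (highest adjusted p 0.0704). For Kcnh5 they were control replicate 2 and MafLSEC-KO replicates 1 to 3 (0.0991), and for Kcnj16 the same and control replicate 1 (0.0935). For Kcnip1 they were control replicates 1, 2 and 4 and MafLSEC-KO replicates 1 to 3 (0.159), and for Kcnd3os control replicates 2 and 4 and MafLSEC-KO replicates 1, 2 and 4 (0.128). Without control replicates 1 and 3, 14 Kcn sums rose and 6 fell, where 1626 and 1290 of all 17768 tested sums did so.

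**Figure D1:**
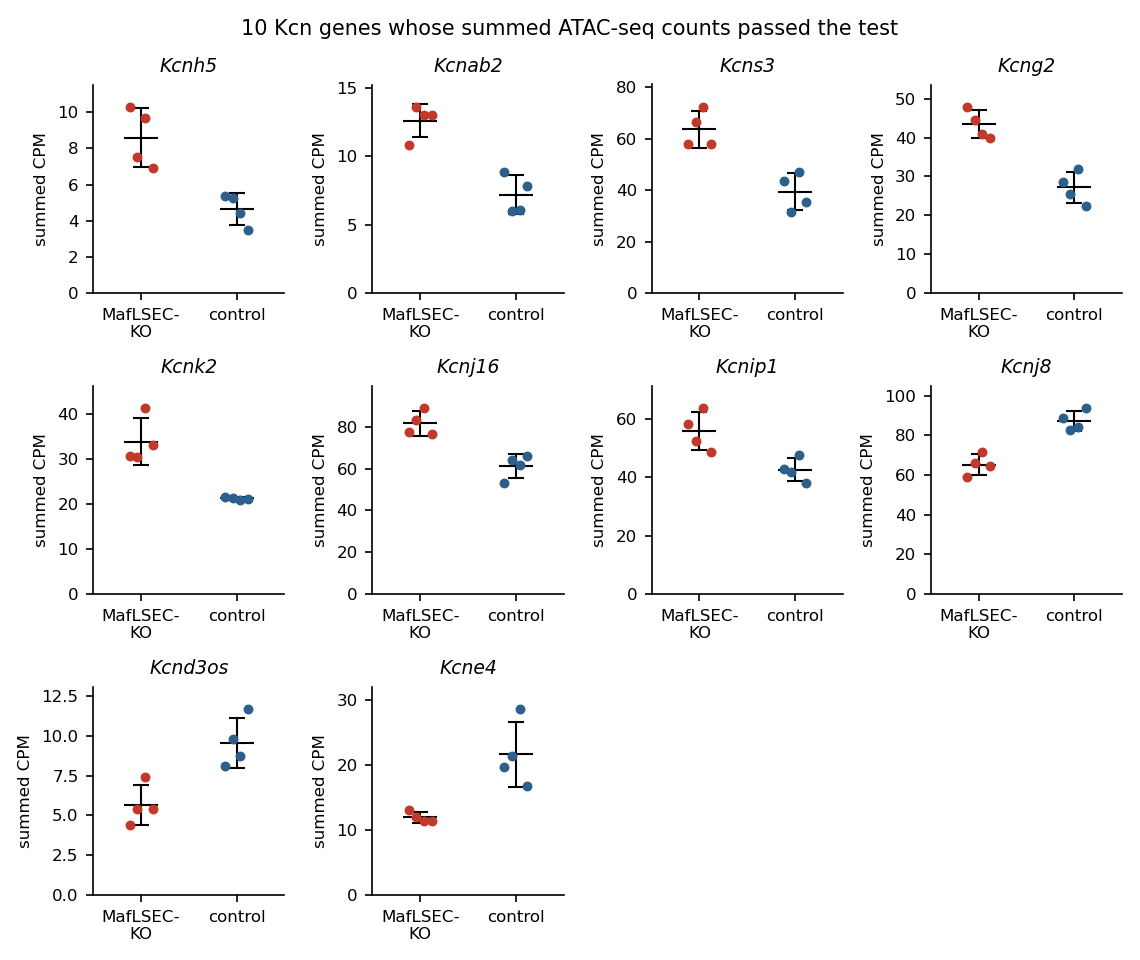
Summed ATAC-seq level (CPM, linear axis from 0) of 10 Kcn genes whose sums passed the test, in 4 MafLSEC-KO libraries (red) and 4 control libraries (blue), with the mean and SD in black. In each panel the groups do not overlap. Kcns3, for example, has 57.8 to 72.4 CPM in MafLSEC-KO and 31.4 to 47.1 CPM in controls.

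By channel class, the pore genes of voltage-gated channels were the most numerous. Of their 88 tested peaks 12 rose (13.6%, against 8.97% of all peaks) and 4 fell (4.55%, against 6.45%), and of their 27 genes 4 rose (14.8%, against 5.65% of all gene sums) and 0 fell (against 4.05%; edgeR; 1 fell at an unadjusted p under 0.05, and 1 with DESeq2). The auxiliary subunits had 30 peaks, of which 2 rose and 2 fell (6.67% each), and 11 genes, of which 2 rose and 1 fell. Of the 46 peaks of inward rectifiers, 5 rose (10.9%) and 2 fell (4.35%), near the shares of all peaks, and of their 13 genes 1 rose and 1 fell. The two-pore-domain channels had 15 peaks, 3 of which rose (20.0%) and 1 of which fell (6.67%), and a median log2 fold change of 0.36. Among the calcium- or sodium-activated channels, 2 of 14 peaks rose (14.3%) and 1 fell (7.14%), while 0 of 7 gene sums passed in either direction (edgeR; 2 higher and 2 lower at an unadjusted p under 0.05, 1 higher and 1 lower with DESeq2). The differences between classes were not tested.

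**Figure D2:**
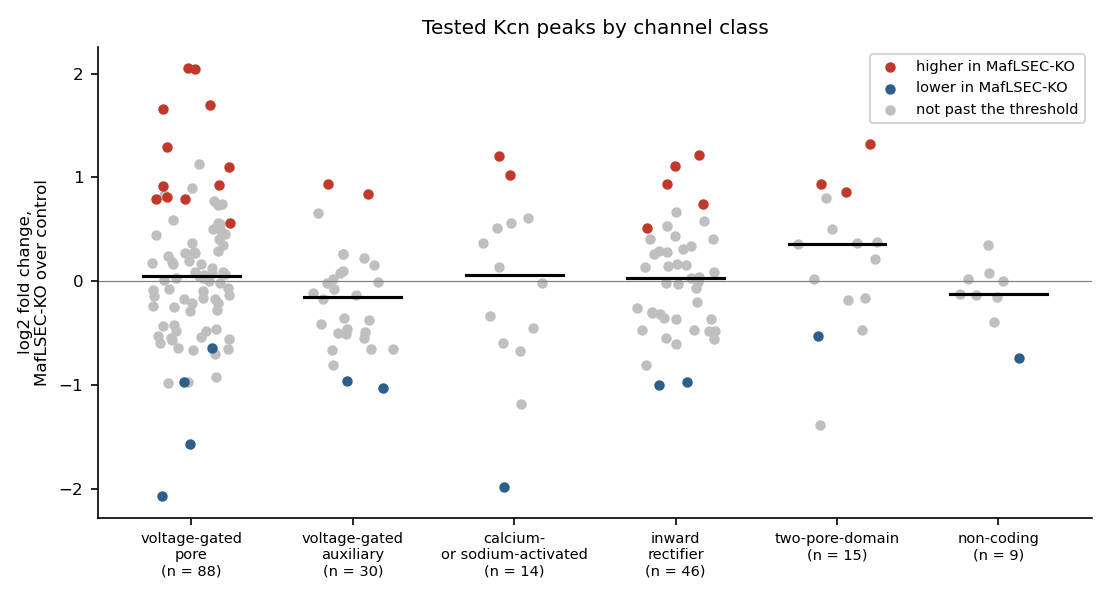
Log2 fold change, MafLSEC-KO over control, of each of the 202 tested Kcn peaks by channel class. Red points rose, blue points fell, grey points did not pass, and black lines are medians, which lie between -0.15 and 0.36.

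Of the subunits that form no channel on their own and modify other voltage-gated channels (Kcng, Kcns and Kcnv genes, a grouping made after their values were seen), 7 were measured and 2 rose, Kcng2 and Kcns3, while 0 fell (against 5.65% and 4.05% of all gene sums; edgeR; 0 at an unadjusted p under 0.05 and 0 with DESeq2). Kcng2 had a summed level of 47.9, 44.6, 41.0 and 40.0 CPM in MafLSEC-KO, against 28.6, 25.6, 32.0 and 22.5 CPM in controls. The groups did not overlap (log2 0.68, SE 0.13, edgeR adjusted p = 0.00466). This rested on 1 of its 5 peaks, in an intron 33.0 kb into the gene on chromosome 18 (80330911 to 80331663), with 17.1, 17.8, 14.3 and 14.9 CPM in MafLSEC-KO and 5.09, 4.6, 4.19 and 2.18 CPM in controls. It was the largest gain of any Kcn peak (log2 2.05, SE 0.236, adjusted p = 9.99e-06). Kcns3 had a summed level of 57.8, 66.5, 72.4 and 58.0 CPM in MafLSEC-KO, against 43.5, 31.4, 47.1 and 35.3 CPM in controls. Again the groups did not overlap (log2 0.70, SE 0.137, adjusted p = 0.00542). Its main peak lay 386 bases from the start over the first exon and rose by 0.79 (SE 0.139, adjusted p = 0.000656), and its other 2 peaks had log2 fold changes of 0.73 and 0.56 without passing.

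The ether-a-go-go genes, named after the shaking leg phenotype of the Drosophila mutant, were likewise grouped after their values were seen. They had 18 tested peaks, of which 4 rose and 0 fell in edgeR, against 8.97% and 6.45% of all peaks. At an unadjusted p under 0.05, 2 fell, and 0 fell with DESeq2. All the gains were at Kcnh1 and Kcnh5. At Kcnh1, a voltage-gated channel of the brain that many tumours express, 3 of 7 peaks rose. The peak over its first exon had 15.3, 15.5, 21.8 and 13.3 CPM in MafLSEC-KO, against 8.54, 6.97, 11.7 and 7.98 CPM in controls. All MafLSEC-KO libraries were above all controls (log2 0.92, SE 0.205, edgeR adjusted p = 0.00417). Intronic peaks 110 kb and 287 kb from the start rose by 1.29 (SE 0.354) and 0.81 (SE 0.153), the 110 kb call being lost without MafLSEC-KO replicate 2 (adjusted p = 0.0658) or 4 (adjusted p = 0.078). The other 4 peaks of Kcnh1 had values below 0, and its sum did not pass (log2 0.35, adjusted p = 0.206). Kcnh5 had a single peak, 352 kb from its start in intergenic DNA, which rose (log2 0.93, SE 0.235, adjusted p = 0.0103), and the sum call is that same peak.

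Among the other voltage-gated pore genes, Kcnq1, the slow repolarising channel of the heart that also serves epithelia, had one of the highest summed levels, with 75.9 to 92.1 CPM in MafLSEC-KO and 81.7 to 115 CPM in controls. Its sum did not pass (log2 -0.19, adjusted p = 0.36). A single intronic peak, 65.8 kb into Kcnq1 (chromosome 7, 143172937 to 143173147), fell, with 0.885, 1.47, 1.57 and 1.11 CPM in MafLSEC-KO and 1.63, 3.98, 4.19 and 5.04 CPM in controls. The groups did not overlap, although control replicate 1, the shallowest library with 9 reads there, lay just above the MafLSEC-KO range (log2 -1.57, SE 0.383, edgeR adjusted p = 0.00812). Single peaks rose at Kcna4 (log2 1.66, 858 kb from the start), Kcna5 (log2 0.79, 32.6 kb) and Kcnc1 (log2 0.56, in an intron of Sergef). At the Kcna4 peak the groups overlapped, with 2.39 CPM in MafLSEC-KO replicate 4 and 2.54 CPM in control replicate 1. Reads there were few, 24 to 63 in MafLSEC-KO libraries and 4 to 15 in controls. The calls at Kcna4 and Kcna5 did not hold if MafLSEC-KO replicate 2 or 3 was left out, nor that at Kcna5 in the absence of control replicate 2 (highest adjusted p 0.0813 and 0.0733). The Kcnc1 call was lost without any 1 of the 8 libraries, with an adjusted p of up to 0.135.

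Auxiliary subunits changed in both directions. Kcne4, a single-pass membrane protein known to suppress currents of Kcnq1, had a summed level of 13.1, 12.0, 11.3 and 11.4 CPM in MafLSEC-KO, against 19.6, 21.4, 28.6 and 16.8 CPM in controls. The MafLSEC-KO libraries were close together and all below the controls (log2 -0.85, SE 0.176, edgeR adjusted p = 0.00797). None of its 3 peaks was at the promoter. All 3 lay in an intron of another transcript, a non-coding one, in the authors' annotation. Those 79.0 and 91.1 kb beyond the start fell by 0.96 (SE 0.289) and 1.03 (SE 0.262) on the log2 scale, the 79.0 kb call not holding if control replicate 2 or 3, or if MafLSEC-KO replicate 2, 3 or 4, was left out (highest adjusted p 0.0988). The nearest, 47.2 kb away, had a log2 fold change of -0.49 and did not pass. With only peaks within 50 kb counted, the Kcne4 call was lost (adjusted p = 0.248). The sequence of the farthest peak is given because it carries the largest loss of Kcne4 and its central 300 bases hold a partial MARE site, 1 side of the element that MAF proteins bind. This and the other peak sequences are the plus strand of mm10, read from the RefSeq genome of the same build (GRCm38), with matches to the 3 motifs described further on in capitals.
Kcne4, 91.1 kb downstream (chr1:78907868-78908167): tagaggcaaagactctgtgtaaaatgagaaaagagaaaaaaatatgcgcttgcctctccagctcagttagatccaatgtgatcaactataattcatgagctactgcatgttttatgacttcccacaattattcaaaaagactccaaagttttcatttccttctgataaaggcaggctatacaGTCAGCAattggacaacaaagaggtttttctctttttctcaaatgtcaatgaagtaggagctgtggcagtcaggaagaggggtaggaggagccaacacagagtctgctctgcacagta
Kcnab2 encodes a cytoplasmic subunit of Shaker channels related to aldo-keto reductases. Its only peak, in an intron, had 10.8, 13.9, 13.2 and 13 CPM in MafLSEC-KO, against 8.72, 6.1, 5.94 and 7.68 CPM in controls. No control library reached the lowest MafLSEC-KO library (log2 0.84, SE 0.192, edgeR adjusted p = 0.00514). At Kcnip1, a calcium-binding partner of A-type channels, 1 of 5 peaks, 17.7 kb before the start, rose, with 33.5, 31.2, 41.7 and 25.4 CPM in MafLSEC-KO and 16.3, 15.4, 21.8 and 15.4 CPM in controls. The groups did not overlap, and control replicate 3 stood above the other controls (log2 0.94, SE 0.171, adjusted p = 0.000803). The Kcnip1 sum passed narrowly (log2 0.40, adjusted p = 0.0481) and held in only 7 of 17 other settings, with an adjusted p of up to 0.159.

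Inward rectifiers included the Kcn gene with the highest summed level, Kcnj2. Per kb of peak it ranked 10, with 19.1 CPM per kb. It encodes the strong inward rectifier that holds the endothelial resting potential and responds to flow. Its promoter peak (ENSMUSG00000041695, chromosome 11, 111064731 to 111066654) had 81.7, 77.0, 90.4 and 73.6 CPM in MafLSEC-KO, against 41.4, 58.5, 62.7 and 62.6 CPM in controls. The lowest MafLSEC-KO library was above the highest control (log2 0.51, SE 0.131, edgeR adjusted p = 0.011). Summed over 12 peaks, Kcnj2 had 157, 130, 164 and 126 CPM in MafLSEC-KO and 93.9, 105, 132 and 106 CPM in controls. Control replicate 3 overlapped the MafLSEC-KO range, and the sum just missed the threshold (log2 0.40, SE 0.12, adjusted p = 0.0517). It passed in 9 of 18 other settings. Of the 12 peaks 11 had values above 0, and 2 of these, 700 and 752 kb downstream in the gene desert toward Sox9, rose by 0.74 and 0.94, calls that did not hold if control replicate 1, 2 or 4, or if MafLSEC-KO replicate 1, 2 or 3, was left out (highest adjusted p 0.173 and 0.122), nor the second in the absence of MafLSEC-KO replicate 4.

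Kcnj16, the neighbour of Kcnj2 on the same strand, encodes a subunit that forms channels with other rectifiers, among them Kcnj10. Its sum had 77.4, 83.4, 89.1 and 76.7 CPM in MafLSEC-KO, against 53.0, 64.2, 61.9 and 66.0 CPM in controls. The groups did not overlap (log2 0.41, SE 0.101, edgeR adjusted p = 0.0212). This sum combined a gain and a loss before the start of the gene. A peak 25.2 kb before the start (chromosome 11, 110942334 to 110943414) rose, with 38.1, 48.8, 45.2 and 43.6 CPM in MafLSEC-KO and 13.6, 19.4, 17.6 and 23.9 CPM in controls (log2 1.22, SE 0.157, adjusted p = 3.42e-05). Another, 11.0 kb before the start, fell, with 6.2, 3.23, 7.63 and 5.12 CPM in MafLSEC-KO and 8.36, 12.2, 8.04 and 14.5 CPM in controls (log2 -1.0, SE 0.262, adjusted p = 0.0132). At both peaks every MafLSEC-KO library was on one side of every control, though the loss was not called without MafLSEC-KO replicate 2 (adjusted p = 0.0601). The promoter peak of Kcnj16 did not pass, with a log2 fold change of 0.03 (SE 0.357). The central 300 bases of the gained peak hold an AP-1 site.
Kcnj16, 25.2 kb upstream (chr11:110942724-110943023): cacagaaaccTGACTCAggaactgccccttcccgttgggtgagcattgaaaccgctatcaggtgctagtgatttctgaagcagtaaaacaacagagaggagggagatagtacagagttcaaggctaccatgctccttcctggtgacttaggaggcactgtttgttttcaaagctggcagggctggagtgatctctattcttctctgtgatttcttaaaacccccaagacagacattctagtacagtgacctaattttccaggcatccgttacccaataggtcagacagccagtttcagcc

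Kcnj8 fell. It encodes the pore of the vascular ATP-sensitive channel, which opens when cellular ATP is low. The summed level was 58.8, 65.9, 71.4 and 64.5 CPM in MafLSEC-KO, against 88.9, 82.6, 84.3 and 93.8 CPM in controls. The highest MafLSEC-KO library was below the lowest control (log2 -0.42, SE 0.0951, edgeR adjusted p = 0.0124). None of its 5 peaks had a value above 0. One of them, 20.0 kb beyond the start in intergenic DNA (chromosome 6, 142551258 to 142551876), fell on its own, with 5.9, 4.98, 4.18 and 5.97 CPM in MafLSEC-KO and 8.17, 11.6, 12.6 and 8.96 CPM in controls (log2 -0.97, SE 0.218, adjusted p = 0.00444). The peak over the first exon had 10.4 CPM in MafLSEC-KO and 15.4 CPM in controls and just missed the threshold (log2 -0.55, adjusted p = 0.0525). Abcc9, the sulfonylurea receptor that completes this channel, had 55.7 ± 8.57 CPM in MafLSEC-KO and 48 ± 2.89 CPM in controls (SD, n = 4 each) and did not pass (log2 0.22, edgeR adjusted p = 0.321). The central 300 bases of the lost Kcnj8 peak hold a GATA site.
Kcnj8, 20.0 kb downstream (chr6:142551417-142551716): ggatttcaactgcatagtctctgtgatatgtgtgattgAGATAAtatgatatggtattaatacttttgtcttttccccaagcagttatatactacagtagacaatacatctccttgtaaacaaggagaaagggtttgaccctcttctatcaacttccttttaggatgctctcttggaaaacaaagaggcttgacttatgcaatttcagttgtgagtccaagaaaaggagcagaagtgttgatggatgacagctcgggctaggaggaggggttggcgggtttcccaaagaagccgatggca
One peak of Kcnj14, another inward rectifier, rose over its second exon (log2 1.11, SE 0.334, edgeR adjusted p = 0.0297), and the call did not hold if control replicate 1 or 4, or if any MafLSEC-KO library, was left out (highest adjusted p 0.0879).

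Among the calcium-activated channels, Kcnn3 changed in opposite directions at its 2 peaks. Kcnn3 and Kcnn4 encode the small- and intermediate-conductance channels that start endothelium-dependent hyperpolarisation. Kcnn3 (ENSMUSG00000000794, chromosome 3, plus strand) had 2 peaks. Its promoter peak, from 89519816 to 89520197, had 5.9, 8.02, 6.79 and 7.59 CPM in MafLSEC-KO, against 2.18, 5.47, 3.67 and 2.64 CPM in controls. All MafLSEC-KO libraries were above all controls (log2 1.02, SE 0.275, edgeR adjusted p = 0.0153), and the call was lost without MafLSEC-KO replicate 2 (adjusted p = 0.0595). The intronic peak 94.0 kb into the gene, from 89614033 to 89614236, had 1.77, 1.57, 0.94 and 0.512 CPM in MafLSEC-KO, against 4.72, 5.1, 2.45 and 5.87 CPM in controls. Here all MafLSEC-KO libraries were below all controls (log2 -1.98, SE 0.396, adjusted p = 0.00182), on 6 to 17 reads in MafLSEC-KO and 14 to 78 in controls. Summed, Kcnn3 had 8.2 ± 0.83 CPM in MafLSEC-KO and 8.08 ± 1.86 CPM in controls (SD, n = 4 each; log2 0.01, adjusted p = 0.988). The promoter from the RefSeq table of GRCm38.p6, 250 bases before to 50 after the start, has no match to the 3 motifs, and the lost intronic peak has a GATA site on the minus strand.
Kcnn3 promoter (chr3:89519914-89520213): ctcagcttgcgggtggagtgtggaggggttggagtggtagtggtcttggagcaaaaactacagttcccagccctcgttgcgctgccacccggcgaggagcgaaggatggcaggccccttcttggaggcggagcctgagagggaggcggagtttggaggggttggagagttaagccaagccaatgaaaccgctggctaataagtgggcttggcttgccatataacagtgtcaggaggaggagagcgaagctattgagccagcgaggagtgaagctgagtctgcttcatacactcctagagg
Kcnn3 intron, 94.0 kb (chr3:89614033-89614236): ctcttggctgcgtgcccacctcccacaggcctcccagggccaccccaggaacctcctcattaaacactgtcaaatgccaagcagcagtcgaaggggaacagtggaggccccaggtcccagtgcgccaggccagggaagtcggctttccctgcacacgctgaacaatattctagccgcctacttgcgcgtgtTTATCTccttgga

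At Kcnn4, 1 of 5 peaks rose. It covers an exon with coding sequence, 7.1 kb into the gene (chromosome 7, 24377020 to 24377698), and had 10.3, 11.2, 15.4 and 8.87 CPM in MafLSEC-KO, against 4.72, 5.22, 5.42 and 4.44 CPM in controls. The controls were close together and all below the MafLSEC-KO libraries (log2 1.21, SE 0.218, edgeR adjusted p = 0.000762). The Kcnn4 sum had 37.2 ± 5.0 CPM in MafLSEC-KO and 25.9 ± 5.89 CPM in controls (SD, n = 4 each). Its libraries did not overlap, and the sum did not pass (log2 0.54, edgeR adjusted p = 0.0582), though it did in 5 of 17 other settings, among them DESeq2 and the fit without control replicate 3 (edgeR adjusted p = 0.0174).

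**Figure D3:**
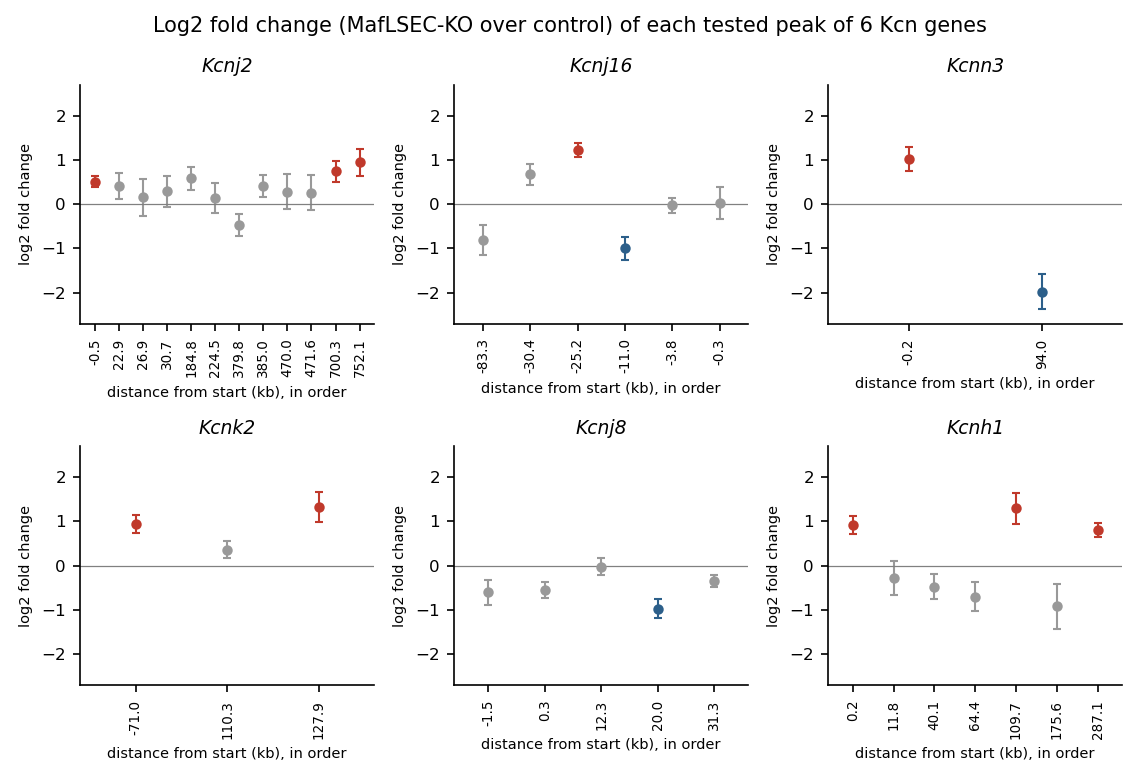
Log2 fold change, MafLSEC-KO over control, of every tested peak of 6 Kcn genes. Bars are the SE, derived here from the fold change and the F statistic of the edgeR test. Peaks are placed in order of distance from the start (kb, positive is downstream, spacing not to scale). Red peaks rose, blue fell and grey did not pass. Kcnj16 and Kcnn3 each hold a gain and a loss, and none of the 5 Kcnj8 peaks lies above 0.

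Two-pore-domain channels were led by Kcnk2, a leak channel opened by stretch and by fatty acids. Its sum had 30.6, 30.3, 41.3 and 33.0 CPM in MafLSEC-KO, against 21.6, 21.4, 20.8 and 21.1 CPM in controls. The controls were almost equal and all below the MafLSEC-KO libraries (log2 0.67, SE 0.131, edgeR adjusted p = 0.00549). Of its 3 peaks 2 rose. One, 71.0 kb before the start, had 14.3, 15.1, 17.2 and 14.3 CPM in MafLSEC-KO and 8.17, 10.8, 5.07 and 7.53 CPM in controls (log2 0.94, SE 0.205, adjusted p = 0.00363). The other lay 128 kb into Kcnk2 but 248 bases from a further coding transcript start of the same gene in GENCODE (log2 1.32, SE 0.338, adjusted p = 0.0112), a call that did not hold in the absence of control replicate 2 (0.0507) or of MafLSEC-KO replicate 3 (0.0629). Kcnk6, a weak inward-rectifying leak channel, had the second highest summed level of all Kcn genes and one of the highest per kb of peak, 39.8 CPM per kb, after 43.4 for Kcnn1 and before 27.2 for Kcnj1. The Kcnk6 peak at its start had 59.6, 65.1, 47.6 and 67.1 CPM in MafLSEC-KO, against 83.0, 95.5, 64.3 and 101 CPM in controls. Control replicate 3 overlapped the MafLSEC-KO libraries (log2 -0.53, SE 0.142, adjusted p = 0.0154), a call that did not hold with control replicate 2 (0.0601) or MafLSEC-KO replicate 3 (0.0691) left out. The Kcnk6 sum did not pass (log2 -0.43, adjusted p = 0.0531), though it did in 10 of 17 other settings. Kcnk7 rose at a peak 511 bases from its start (log2 0.86, SE 0.194, adjusted p = 0.00439) and not in its sum.

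Kcnd3os, a transcript on the strand opposite to Kcnd3, had a single peak that fell, with 4.43, 5.53, 7.52 and 5.38 CPM in MafLSEC-KO and 7.99, 9.95, 8.56 and 11.4 CPM in controls (log2 -0.74, SE 0.218, edgeR adjusted p = 0.026; up to 0.0788 without any 1 of the libraries named for its sum). The groups did not overlap, but the peak lies in an intron of Kcnd3, 93.8 kb from the start of Kcnd3os, and ATAC-seq reads have no strand, so it cannot be given to either gene. Kcnq1ot1, the long non-coding RNA that silences the imprinted Kcnq1 domain, had 53.0 ± 4.86 CPM in MafLSEC-KO and 52.2 ± 3.91 CPM in controls (SD, n = 4 each; log2 0.02, adjusted p = 0.932).

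Promoter peaks were a minority: 17 of the 202 tested Kcn peaks (8.42%, against 13.3% of all peaks) lay at a promoter as HOMER annotates it, and 52 of the 68 genes had none. Of the 17, 3 rose, among them Kcnn3 and Kcnj2, and 1 fell, against 5.48% and 1.65% of all 7751 promoter peaks. The other 13 did not pass. Of the peaks within introns, 9 of 82 rose (11.0%, against 9.45% of all intron peaks) and 8 fell (9.76%, against 7.27%). Of the intergenic peaks 8 of 81 rose (9.88%, against 10.2% of all intergenic peaks) and 2 fell (2.47%, against 7.63%). Within 1 kb of a start, 6 of 29 peaks rose (20.7%, against 6.03% of all peaks so placed) and 2 fell (6.9%, against 1.75%). Between 1 and 10 kb 4 of 45 rose (8.89%, against 9.0%) and 0 fell (against 6.35%). There, 4 fell at an unadjusted p under 0.05 in edgeR and 0 with DESeq2. Between 10 and 50 kb 5 of 69 rose (7.25%, against 8.8%) and 4 fell (5.8%, against 7.63%). Beyond 100 kb from a start, 7 of 34 peaks rose (20.6%, against 11.9% of all peaks so placed) and 0 fell (against 9.31%; edgeR; 2 fell at an unadjusted p under 0.05, 0 with DESeq2). Between 50 and 100 kb 2 of 25 rose (8.0%, against 11.6%) and 5 fell (20.0%, against 8.4%). The differences between these classes of peaks were not tested. In all, 14 of the 35 called peaks lay beyond 50 kb and 3 within another gene, not counting genes with provisional symbols. The called Kcne4 peaks, in an intron of another transcript, are not among these 3.

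**Figure D4:**
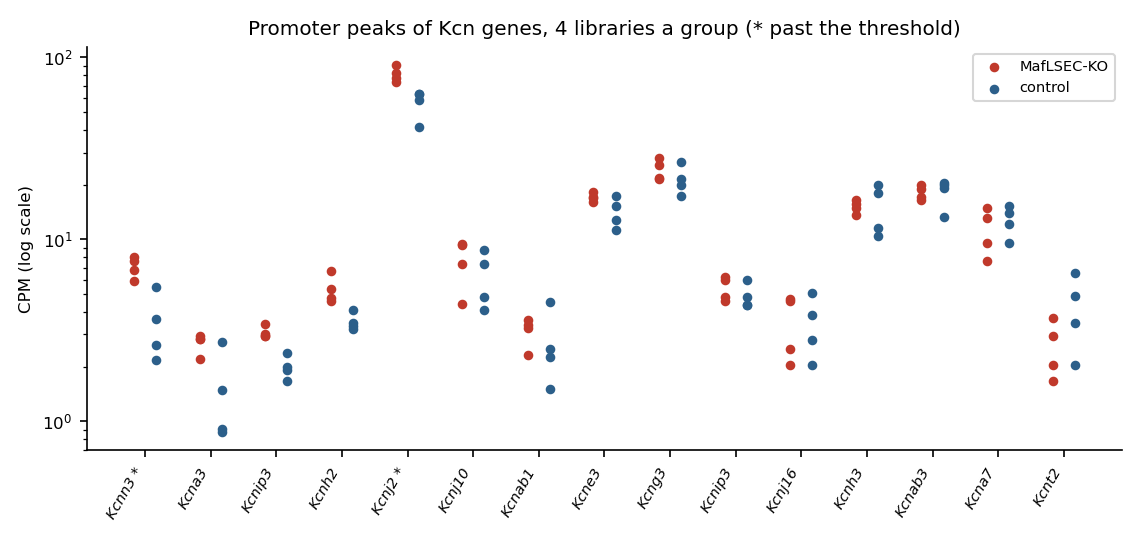
Level (CPM, log axis) of 15 promoter peaks of Kcn genes in 4 MafLSEC-KO libraries (red) and 4 control libraries (blue), ordered by log2 fold change. Those past the threshold are starred: Kcnn3 and Kcnj2 rose, and in both the points of the groups do not overlap. Kcnip3 has 2 promoter peaks.

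Of 12 potassium channels known from vascular endothelium, 11 were measured, and Kcnma1 is not analysed here. Of these, Kcnk2 rose, Kcnj8 fell and 9 did not pass, with a median log2 fold change of 0.01, where 5.65% of all gene sums rose and 4.05% fell. At an unadjusted p under 0.05 in edgeR, 3 rose and 2 fell, and likewise 3 and 2 with DESeq2. Kcnj2 (log2 0.40), Kcnk6 (log2 -0.43) and Kcnn4 (log2 0.54) just missed the threshold, with edgeR adjusted p-values of 0.0517, 0.0531 and 0.0582. The summed level of the 11 genes was 561 to 595 CPM in MafLSEC-KO and 557 to 607 CPM in controls. Among them Kcna5 (log2 0.12), Kcne3 (log2 0.07) and Kcnq5 (log2 -0.13) had adjusted p-values between 0.593 and 0.807. Kcnj1, an epithelial rectifier known from the kidney and among the 5 Kcn genes with the highest summed levels, had 79.3, 82.0, 76.5 and 106 CPM in MafLSEC-KO, against 60.3, 86.9, 63.7 and 122 CPM in controls. The groups overlapped throughout (log2 0.03, SE 0.192, edgeR adjusted p = 0.939), and the deepest library of each type of mouse was the highest.

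Genes that act with these channels were described for comparison, and their counts stand beside 5.65% of all gene sums that rose and 4.05% that fell. Of 15 channel partners measured, 2 rose and 0 fell (edgeR; 0 at an unadjusted p under 0.05 and 0 with DESeq2): Ank3, an ankyrin that anchors channels in the membrane (log2 1.17, SE 0.121, edgeR adjusted p = 8.78e-05), and Lrrc55, an auxiliary subunit of large-conductance calcium-activated channels (log2 0.93, SE 0.156, adjusted p = 0.00226). Of 20 potassium pumps and cotransporters with their regulators, the pump regulator Fxyd5 rose and Fxyd3 fell. Of 24 genes of calcium entry and spread of hyperpolarisation, Piezo2 and the connexin gene Gja5 rose, and Plcb1 and the connexin gene Gja1 were among the 3 that fell. Gja1 had 75.4, 67.0, 75.6 and 72.1 CPM in MafLSEC-KO, against 173, 153, 150 and 141 CPM in controls, the groups being far apart (log2 -1.09, SE 0.0928, adjusted p = 1.92e-05).

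Short motifs were searched on both strands in the central 300 bases of each tested peak: the partial MARE site TGCTGAC, the AP-1 site TGACTCA and the GATA site AGATAA, the first 2 of which can share their TGAC. A partial MARE site was present in 2 of 11 Kcn peaks that fell (18.2%, among them Kcne4), 2 of 24 that rose (8.33%, at Kcna5 and Kcnj2) and 6.01% of all tested peaks. Over all peaks the share was 15.4% of those that fell and 4.61% of those that rose. An AP-1 site was present in 2 of the 11 Kcn peaks that fell (among them Kcne4), in 2 of the 24 that rose (Kcnip1 and Kcnj16) and in 8.57% of all tested peaks, with 21.0% among all that rose and 8.56% among all that fell. A GATA site was present in 2 of the 11 (Kcnj8 and Kcnn3), in 3 of the 24 (12.5%) and in 16.1% of all tested peaks, with 24.0% among all that rose and 21.1% among all that fell. The median GC content of the windows was 51.5% for Kcn peaks and 50.0% for all. These shares are descriptions of letters in the windows, with 2 or 3 peaks behind each Kcn value.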

How the data were processed

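ATAC-seq was performed on hepatic endothelial cells of MafLSEC-KO and control mice, with 4 libraries each. According to the methods, trimmed reads were mapped by the authors to mm10 (Bowtie2) and freed of PCR duplicates (Picard), and peaks came from MACS2. Blacklisted peaks were dropped, peaks of the groups were joined and reads on them counted (bedtools 2.30.0), and HOMER 4.11 named the nearest gene. No shift of read ends for the transposase is given in the sources used here. The deposited table holds raw counts per peak and library, which were used here, as well as normalized values and the authors' own comparison (fold changes and p-values, by DESeq2 1.42.1), which were not. The authors' distance to the nearest start is another column of the deposited table.

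Raw counts per peak, and counts summed over peaks of the same gene, were analysed with edgeR 4.0.16 in R 4.3.3 (TMM, filterByExpr, quasi-likelihood test, group as the only term, two-sided, Benjamini-Hochberg adjustment over all features, called at an adjusted p under 0.05). The filter removed 254 peaks, 2 of them of Kcn genes. Values are CPM after TMM, mean ± SD, and log2 fold changes have MafLSEC-KO on top. Each SE was derived here as the absolute log2 fold change divided by the square root of the F statistic of the quasi-likelihood test. Genome positions are 1-based. Depth limits the precision most at peaks with few reads, and reads are not independent molecules.

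DESeq2 1.42.0, other normalizations, no filter, leaving out each library, a replicate block, log2 depth as a covariate and other ways of summing were run as alternatives. The fits were tested on simulated data. Named genes were those with a called sum, the leading 10 gained and 10 lost peaks by p among those without overlap, the 5 highest levels, the endothelial list and Maf, and other called peaks were named after their values were seen. The members, lists and motifs were chosen with earlier results of these data known. RefSeq promoter entries were found for 50 of the 68 genes. Results for some genes that these rules name are not reported here, and 2 Kcn genes are left out of the plots that show gene names.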

Additional observations from a re-analysis of the deposited data

Results flagged for a closer look

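Among 116 groups of 4 libraries that were checked for a library far from its group, 2 were singled out, where chance alone gives about 1 in 20. At the Kcnip1 peak 17.7 kb before the start, control replicate 3 had 21.8 CPM and the other controls 15.4 to 16.3 CPM, a gap of 0.847 of the range of the group. At the Kcne4 peak 79.0 kb beyond the start, MafLSEC-KO replicate 1 had 5.75 CPM and the other MafLSEC-KO libraries 2.82 to 3.04 CPM, a gap of 0.925 of the range.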

How the results depend on the processing

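Of 202 Kcn peaks, 24 rose and 11 fell; without 1 library each, 16 (without MafLSEC-KO replicate 2) to 30 (control replicate 3) rose and 8 (control replicate 2) to 16 (control replicate 4) fell. With log2 depth as a covariate, 40 Kcn peaks rose and 23 fell (8573 and 6589 of all peaks). Without the 2 shallowest controls, an alternative chosen after seeing the data, 32 rose and 19 fell (6826 and 5585 of all peaks). Of the Kcn sums, 8 rose and 3 fell (1002 and 718 of all sums). DESeq2 called 11 and 7 (1310 and 1045 of all sums). Library totals alone gave 7 and 5 (976 and 723), and so did no filter (956 and 775). Depth as a covariate gave 17 and 7 (2312 and 1975). Sums without LINE peaks gave 10 and 6 (1035 and 798), and sums without the shallowest controls 14 and 6 (1626 and 1290). With promoter peaks alone, where fewer genes were tested, 1 Kcn sum rose and 0 fell (189 and 105 of all sums), and the value of Kcnj16 changed sign (log2 -0.03, adjusted p = 0.981). Without 1 library each, 4 (control replicate 2, MafLSEC-KO replicates 2 and 3) to 12 (control replicate 3) Kcn sums rose and 1 (MafLSEC-KO replicate 1) to 8 (control replicate 4) fell. Leaving out control replicate 1 or 3 gave 5 that fell, and leaving out MafLSEC-KO replicate 1 gave 5 that rose. The Kcn promoter peaks that fell ranged from 0 (control replicates 2 and 4, MafLSEC-KO replicates 1, 3 and 4) to 1. Over all features, 3349 to 5702 peaks rose and 2487 to 4725 fell, and 502 to 1471 sums rose and 401 to 1356 fell. The cause of these shifts was not tested.

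With a replicate block, 31 Kcn peaks rose and 22 fell (8264 and 6258 of all peaks), and 14 Kcn sums rose and 8 fell (2158 and 1917 of all sums). Deviations of same-numbered libraries correlated at 0.19, 0.0967, 0.26 and 0.44, the second under 0.1, and those of unlike number at -0.32 to 0.21. Not every library correlated best with its own number, so the numbers were not taken to pair the libraries, and a pairing was not excluded. Of the calls named, 21 of 35 peaks and 4 of 11 sums passed in every alternative. No scaling moved the median of all features by more than 0.03 on the log2 scale. Depth limits peaks with few reads most, such as the lost intron peaks of Kcnn3 and Kcnq1, which had 6 to 17 and 6 to 16 reads in MafLSEC-KO libraries, against 14 to 78 and 9 to 67 reads in controls.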
